A study of Mus musculus with 3 samples.

Results

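The genes described here encode the subunits of the 5 oxidative phosphorylation complexes of mitochondria. They were taken by name, as every gene whose symbol begins with Ndufa, Ndufb, Ndufc, Ndufs or Ndufv and a digit, Sdha to Sdhd, Uqcr, Cyc1, Cox4 to Cox8, Atp5, mt-Nd, mt-Co, mt-Cytb or mt-Atp, without pseudogenes marked as such. This gave 94 of 52071 genes listed outside merged groups of overlapping genes, 88 encoded in the nucleus and 6 in mitochondrial DNA, with 1126 of 469293 exonic parts. By their known role 10 of the 94 are not subunits of an assembled complex (Sdhaf1, Sdhaf2, Sdhaf3, Sdhaf4, Ndufa11b, Ndufb4c, Ndufs6b, Ndufa4l2, Cox6c2 and Cox7a2l), and these count in totals over all named genes but in no complex. A further 13 entries with such names lay in merged groups and were not analysed here, among them mt-Nd1, mt-Nd2, mt-Nd4, mt-Co3 and mt-Atp6.

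The data come from RNA-seq of skeletal muscle at an age of 12 weeks, with 3 libraries, 1 for each genotype. The mice were homozygous or heterozygous for I538T in Rbm20, a knock-in made by CRISPR/Cas editing that stands for the human change I536T, or wild type. RBM20 is an RNA-binding protein of heart and skeletal muscle that controls splicing, best known for titin, and the edited allele is present in every tissue. The labels name neither the muscle taken nor any pooling of animals. As each genotype has 1 library, the differences below have no replicate check and no test between genotypes is possible.

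In oxidative phosphorylation, complex I (NADH dehydrogenase) and complex II (succinate dehydrogenase) pass electrons to ubiquinone. Complex III hands them to cytochrome c and complex IV (cytochrome c oxidase, COX) to oxygen, while complexes I, III and IV pump the protons that drive complex V, the ATP synthase. Complexes I, III, IV and V are built from both genomes, whereas complex II is encoded in the nucleus alone, and oxidative muscle fibres hold more of all of them than glycolytic fibres do.

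Levels are given as RPM, a gene's inclusion reads (reads over its exonic parts) per 1000000 inclusion reads of the library. Inclusion reads numbered 215923385 in homozygous, 265358773 in heterozygous and 239837797 in wild-type muscle, and the 94 genes took 15928013 of these in homozygous, 22479646 in heterozygous and 20074850 in wild-type muscle. Rbm20 itself was at 2.97 RPM in homozygous, 10.8 RPM in heterozygous and 13.0 RPM in wild-type muscle; the counts do not show the allele. Genes at 5 RPM or more in at least 1 library were called measured, and a difference of at least 1.5-fold in RPM plus 1 was called higher or lower. At that size 24.0% of all 9432 measured genes were lower and 6.74% higher in homozygous than in wild-type muscle, and 16.5% were higher and 8.85% lower in heterozygous than in wild-type muscle. The median log2 ratio of all measured genes was -0.18 for homozygous and 0.10 for heterozygous over wild type, so ratios near these values are not departures from the bulk of genes.

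The libraries also differed in what the muscle held. Summed markers of slow fibres, which are rich in mitochondria, were at 135 RPM in homozygous, 895 RPM in heterozygous and 2325 RPM in wild-type muscle, with 8 of 8 genes lower in homozygous and 7 of 8 lower in heterozygous than in wild-type muscle. Fast-fibre markers summed to 159470 RPM in homozygous, 122484 in heterozygous and 133790 in wild-type muscle. Myh2, the myosin of fast oxidative fibres, stood at 333 RPM in homozygous, 681 in heterozygous and 538 in wild-type muscle. White fat markers summed to 2322 RPM in homozygous, 7725 RPM in heterozygous and 3826 RPM in wild-type muscle, lower in 5 of 7 genes in homozygous and higher in 4 and lower in 1 of 7 in heterozygous than in wild-type muscle. Brown fat markers were low, at 25.5 RPM in homozygous, 53.8 in heterozygous and 9.96 in wild-type muscle. Only 3 of the 6 were measured. Of these 2 were higher and 1 lower in homozygous, and 3 higher in heterozygous than in wild-type muscle. Endothelial markers summed to 63.6 RPM in homozygous, 106 in heterozygous and 79.7 in wild-type muscle. Macrophage markers summed to 134 RPM in homozygous, 335 in heterozygous and 279.6 in wild-type muscle, and fibroblast and tendon markers to 623 RPM in homozygous, 1344 in heterozygous and 985 in wild-type muscle. Single fibroblast and tendon genes did not all follow their sum. Of 5 measured, 2 were higher and 1 lower in homozygous than in wild-type muscle, with a median log2 ratio of 0.42. In heterozygous muscle 2 of the 5 were higher and 0 lower. Red cell markers summed to 4493 RPM in homozygous, 8789 in heterozygous and 7159 in wild-type muscle, and Schwann cell markers to 19.1 RPM in homozygous, 58.9 in heterozygous and 54.0 in wild-type muscle. No slow-fibre, fast-fibre or white fat marker was at 0 in any library. In bulk muscle, fewer cells of a type and less RNA per cell cannot be told apart, and the part of this makeup in the results below was not tested.

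Of the 94 genes 87 were measured, 81 of them nuclear. Cox7b2 and Cox8c, isoforms known from testis, had 0 reads in all 3 libraries. Cox4i2, Cox6b2, Cox6c2, Ndufa11b and Ndufs6b stayed under 5 RPM.

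Few subunit genes passed the fold. Of the 87 measured genes, 1 was lower in homozygous than in wild-type muscle and 0 higher, where 30.7% of all measured genes passed the fold in either direction. Of the 917 genes at a mean of 100 RPM or more 12.0% did, 2.07% higher and 9.92% lower. In heterozygous against wild-type muscle 2 were higher and 0 lower, against 25.3% of all measured genes in either direction and 6.43% of those at 100 RPM or more, 5.02% higher and 1.42% lower. Between homozygous and heterozygous muscle 2 were lower in the homozygous library and 0 higher, against 35.7% of all measured genes (5.42% higher, 30.3% lower) and 16.6% of those at 100 RPM or more (2.94% higher, 13.6% lower). The counts depend on the scaling. With median-of-ratios factors 0 passed in homozygous against wild-type muscle (29.7% of all genes did), 1 was higher in heterozygous than in wild-type muscle (23.9%) and 1 lower in homozygous than in heterozygous muscle (31.9%). With upper-quartile scaling, which moves the median of all genes to 0.19 for homozygous over wild type, 11 passed in homozygous against wild-type muscle, all of them higher, where 33.9% of all genes passed, 22.6% higher and 11.3% lower. Sdha, Sdhb and Atp5b had the highest ratios of these 11, all 3 past 1.5-fold under that scaling alone of those tried. In the same scaling 1 was higher in heterozygous than in wild-type muscle (23.7% of all genes passed in either direction), and 7 were higher and 0 lower in homozygous than in heterozygous muscle, against 35.0% of all genes, 21.9% higher and 13.1% lower. On the library total, the gene lower in homozygous muscle was Atp5md, a small membrane subunit of the ATP synthase, and the pair higher in heterozygous muscle were Cox6a1 and Cox8a, the COX isoforms of tissues other than heart and muscle.

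The median log2 ratio of the 81 nuclear genes was -0.08 for homozygous over wild type, with 30 genes above 0, and 0.03 for heterozygous over wild type, with 46 above 0. The 917 genes at 100 RPM or more had medians of -0.01 for homozygous and 0.07 for heterozygous over wild type, with 445 and 565 above 0. Among all 9432 measured genes 3394 were above 0 for homozygous and 5663 for heterozygous over wild type. Counts of genes above or below 0 for single complexes, on the library total, are to be read against these. Together the 88 nuclear genes took 5.69% of inclusion reads in homozygous, 6.23% in heterozygous and 6.07% in wild-type muscle. The sign of the homozygous median depends on the scaling: it was 0.09 with median-of-ratios factors and 0.29 with upper-quartile scaling, and the heterozygous median became -0.08 and -0.07. The summed levels of complexes I, III, IV and V given below, which lay at or below wild type in homozygous muscle, came to log2 ratios of 0.16, 0.09, 0.01 and 0.10 over wild type with median-of-ratios factors.

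**Figure D1:**
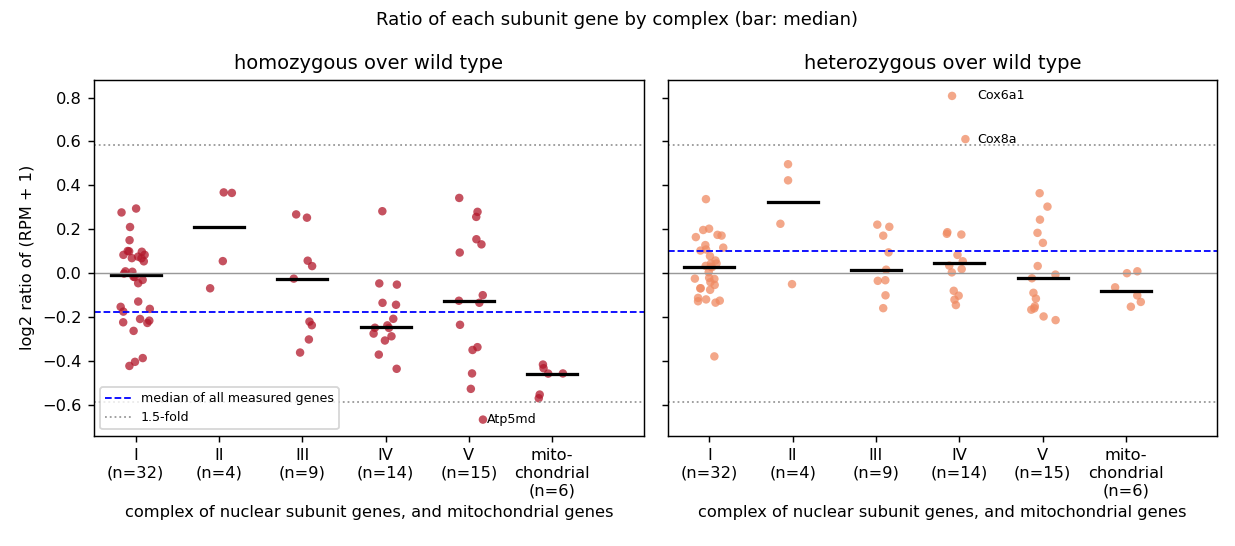
Each point is 1 measured subunit gene, plotted as the log2 ratio of RPM plus 1 of homozygous (left) or heterozygous (right) over wild-type muscle, by complex for nuclear genes and in the last column for mitochondrial genes. Black bars are medians, the dashed line is the median of all measured genes (-0.18 and 0.10) and dotted lines mark 1.5-fold. Atp5md lies below the lower line on the left, Cox6a1 and Cox8a above the upper line on the right.

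The ratios varied with the place on the mRNA. For 48 nuclear genes parts could be read both under 500 bases from the 3′ end of the mRNA and at 500 bases or more from it. The log2 ratio of homozygous over wild type was higher in the far parts in 42 of the 48, by a median of 0.12, and that of heterozygous over wild type in 39 of 48, by 0.09. Of 570 genes at 100 RPM or more, 485 had the higher ratio in their far parts in homozygous over wild type (median 0.15) and 445 in heterozygous over wild type (median 0.10), so the subunit genes went with other genes of like level. Read from near parts alone, 68 nuclear genes had medians of -0.13 for homozygous and 0.01 for heterozygous over wild type. Near parts of 636 genes at 100 RPM or more had medians of -0.11 for homozygous and 0.03 for heterozygous over wild type. Those of 2557 measured genes had medians of -0.18 and 0.05. For homozygous over wild type 50 of the 68, 424 of the 636 and 1766 of the 2557 were below 0. In the near parts 0 of them passed 1.5-fold in homozygous against wild-type muscle, 2 in heterozygous against wild-type muscle and 2 between both mutant libraries, where 22.7%, 15.5% and 27.5% of 2557 genes did, and 12.6%, 5.66% and 17.1% of 636 genes at 100 RPM or more. Choosing parts by this distance was decided after the data were seen.

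**Figure D2:**
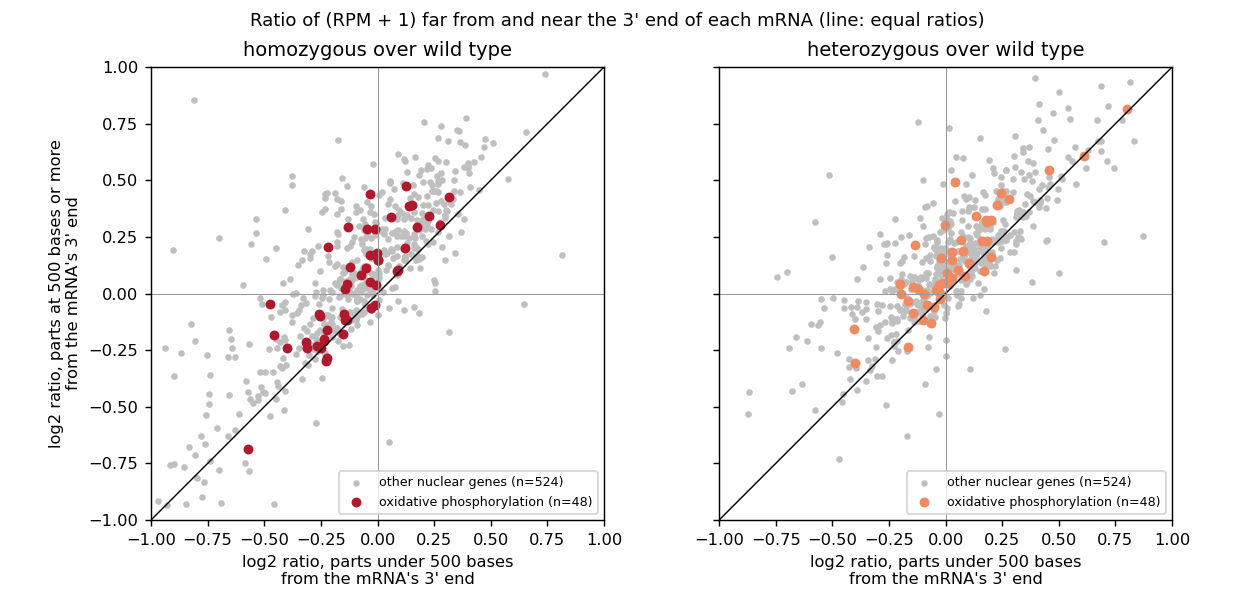
Log2 ratio of RPM plus 1 from parts at 500 bases or more from the mRNA's 3′ end (vertical axis) against that from parts under 500 bases from it (horizontal axis), for homozygous (left) and heterozygous (right) over wild-type muscle. Coloured points are 48 nuclear oxidative phosphorylation genes, grey points 524 other nuclear genes at a mean of 100 RPM or more, of which 31 and 9 lie beyond the axes. Of the coloured points 42 on the left and 39 on the right lie above the line of equal ratios.

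Complex I has core subunits, which carry the electron path and are conserved from bacteria, and accessory subunits around them. Its 32 nuclear subunits summed to 15974 RPM in homozygous, 16783 RPM in heterozygous and 16352 RPM in wild-type muscle, log2 ratios of -0.03 for homozygous and 0.04 for heterozygous over wild type. None passed 1.5-fold in either comparison. The 7 core subunits had a median log2 ratio of 0.10 in homozygous over wild type, 6 of them above 0, and the 25 accessory subunits -0.03, with 9 above 0 (17 with median-of-ratios factors and 23 with upper-quartile scaling). From parts near the 3′ end, 6 core subunits had a median of -0.02 and 22 accessory subunits -0.03.

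Among core subunits Ndufs8, an iron-sulfur protein (ENSMUSG00000059734, chromosome 19), had 416 RPM in homozygous, 433 RPM in heterozygous and 343 RPM in wild-type muscle, lowest in wild type under each scaling tried. Of the accessory subunits, Ndufc1 (ENSMUSG00000037152, chromosome 3) had 695 RPM in homozygous, 852 in heterozygous and 931 in wild-type muscle. Ndufa3 (ENSMUSG00000035674, chromosome 7) had 479.6 RPM in homozygous, 605 in heterozygous and 634 in wild-type muscle. Ndufb3 (ENSMUSG00000026032, chromosome 1) had 196 RPM in homozygous, 197 in heterozygous and 256 in wild-type muscle. On the library total Ndufb3 had log2 ratios over wild type of -0.39 for homozygous and -0.38 for heterozygous muscle, but with upper-quartile scaling 0.0042 for homozygous and -0.48 for heterozygous muscle. Per length, the highest nuclear subunits of complex I in wild type were Ndufa2 and Ndufb11. Ndufa2 had 489 RPM per kilobase in homozygous, 535 in heterozygous and 587 in wild-type muscle. Ndufb11 had 387 RPM per kilobase in homozygous, 415 in heterozygous and 423 in wild-type muscle.

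Complex II also belongs to the citric acid cycle. Its 4 subunits summed to 1500.1 RPM in homozygous, 1614 RPM in heterozygous and 1256 RPM in wild-type muscle, log2 ratios of 0.26 for homozygous and 0.36 for heterozygous over wild type, while the longest part of each gene alone gave -0.03 and 0.11. In that setting only 3 of the 4 genes reached the 5 RPM minimum. Sdhb was not among them, so those 2 ratios say little about Sdhb. Sdha, the flavoprotein that oxidises succinate (ENSMUSG00000021577, chromosome 13), had 349.9 RPM in homozygous, 364 RPM in heterozygous and 271 RPM in wild-type muscle. Sdhb, the iron-sulfur subunit (ENSMUSG00000009863, chromosome 4), had 740.5 RPM in homozygous, 811 in heterozygous and 574 in wild-type muscle. Both were above wild type in both mutant libraries, by log2 ratios of 0.37 in homozygous and 0.42 in heterozygous muscle for Sdha and of 0.37 in homozygous and 0.50 in heterozygous muscle for Sdhb, under the fold used for a call.

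The catalytic subunits differed in where on the mRNA this lay. For Sdha the parts near the 3′ end held 42.4 RPM in homozygous, 44.6 RPM in heterozygous and 43.4 RPM in wild-type muscle, log2 ratios of -0.03 for homozygous and 0.04 for heterozygous over wild type. Its far parts held 307 RPM in homozygous, 317 in heterozygous and 226 in wild-type muscle, log2 ratios of 0.44 for homozygous and 0.49 for heterozygous over wild type. For Sdhb the near parts still held 405 RPM in homozygous, 447 RPM in heterozygous and 326 RPM in wild-type muscle, log2 ratios of 0.31 for homozygous and 0.45 for heterozygous over wild type. The membrane anchors were closer to wild type. Sdhc had 192 RPM in homozygous, 194 in heterozygous and 201 in wild-type muscle. Sdhd had 218 RPM in homozygous, 245 in heterozygous and 209.7 in wild-type muscle. Levels of the 4 assembly factors of complex II are not divided by length and so not compared with its subunits. Sdhaf1 had 15.6 RPM in homozygous, 16.7 in heterozygous and 21.2 in wild-type muscle, and Sdhaf2 had 32.1 RPM in homozygous, 35.5 in heterozygous and 28.4 in wild-type muscle. Sdhaf3 had 12.8 RPM in homozygous, 15.1 in heterozygous and 13.6 in wild-type muscle, and Sdhaf4 had 62.2 RPM in homozygous, 58.5 in heterozygous and 77.0 in wild-type muscle.

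Complex III, the cytochrome bc1 complex, had 9 measured nuclear subunits that summed to 6516 RPM in homozygous, 7131 RPM in heterozygous and 6975 RPM in wild-type muscle, log2 ratios of -0.10 for homozygous and 0.03 for heterozygous over wild type. None passed 1.5-fold. The larger subunits (Cyc1, Uqcrc1, Uqcrc2 and Uqcrfs1) were above 0 in 4 of 4 genes for homozygous over wild type, with a median log2 ratio of 0.16, and the 5 small subunits in 0 of 5, with a median of -0.24 (1 of 5 above 0 with median-of-ratios factors and 5 of 5 with upper-quartile scaling). From parts near the 3′ end the 3 larger subunits with a value were all below 0, with a median of -0.12, and 4 small subunits had a median of -0.23. The median of 636 genes at 100 RPM or more in such parts was -0.11.

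Cyc1, the haem protein cytochrome c1 (ENSMUSG00000022551, chromosome 15), had 905 RPM in homozygous, 876 RPM in heterozygous and 751 RPM in wild-type muscle. Uqcrc1 (ENSMUSG00000025651, chromosome 9) had 1029 RPM in homozygous, 1165 in heterozygous and 1006 in wild-type muscle. Both genes were lowest in wild type under each scaling tried. Uqcrq (ENSMUSG00000044894, chromosome 11) had 1192 RPM in homozygous, 1428 in heterozygous and 1530.5 in wild-type muscle. Uqcr11 (ENSMUSG00000020163, chromosome 10) had 658 RPM in homozygous, 792 in heterozygous and 811 in wild-type muscle. Both small subunits were lowest in homozygous and highest in wild-type muscle on the library total, but with upper-quartile scaling their homozygous ratios over wild type were above 0, at 0.03 for Uqcrq and 0.09 for Uqcr11.

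Complex IV had 14 measured nuclear subunits, with a median log2 ratio of -0.24 for homozygous over wild type, 13 of them below 0, and 0.05 for heterozygous over wild type. Ndufa4 was counted here by its known role, and not in complex I as its name has it. The summed level of the 18 listed genes of complex IV was 15821 RPM in homozygous, 18296 RPM in heterozygous and 17911 RPM in wild-type muscle, log2 ratios of -0.18 for homozygous and 0.03 for heterozygous over wild type. For homozygous over wild type the median of all measured genes was -0.18, with 6038 of 9432 below 0. With median-of-ratios factors the COX median was -0.05, with 5 of 14 genes above 0, and with upper-quartile scaling 0.15, with 13 above 0. From parts near the 3′ end 12 of 13 genes were below 0, with a median of -0.22. Of 636 genes at 100 RPM or more 424 were below 0 in such parts, with a median of -0.11.

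Cox7b (ENSMUSG00000031231, X chromosome) had 497 RPM in homozygous, 713 RPM in heterozygous and 673 RPM in wild-type muscle. Cox7c (ENSMUSG00000017778, chromosome 13) had 1175 RPM in homozygous, 1374 in heterozygous and 1519 in wild-type muscle. Cox6b1 (ENSMUSG00000036751, chromosome 7) had 1272 RPM in homozygous, 1488 in heterozygous and 1573 in wild-type muscle. On the library total each was lowest in homozygous muscle, with log2 ratios over wild type of -0.43 for Cox7b, -0.37 for Cox7c and -0.31 for Cox6b1, whereas upper-quartile scaling gave -0.04 for Cox7b, 0.02 for Cox7c and 0.09 for Cox6b1. Cox7c and Cox6b1 were lowest in heterozygous muscle with both other scalings. Cox4i1, the common form of a regulatory subunit, had 2430.4 RPM in homozygous, 2814 RPM in heterozygous and 2805 RPM in wild-type muscle.

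Complex IV has muscle forms of several subunits. Cox6a2 and Cox8b are the heart and muscle forms, Cox6a1 and Cox8a their counterparts in other tissues, Cox7a1 and Cox7a2 are a like pair, Cox4i2 is known from lung and Cox6b2 from testis. In RPM per kilobase, with a constant added to each part's length as explained with the splicing values below, Cox6a2 made up 96.6% of its pair in homozygous, 93.2% in heterozygous and 95.5% in wild-type muscle. Cox8b made up 92.5% of its pair in homozygous, 89.5% in heterozygous and 92.0% in wild-type muscle. Cox7a1 made up 58.4% of its pair in homozygous, 59.7% in heterozygous and 62.4% in wild-type muscle. The muscle forms held most of these pairs in each library, except that the longest part of each gene gave Cox7a1 48.9% in homozygous muscle, and the heterozygous library had the lowest share for Cox6a2 and Cox8b. Cox4i2 made up 0.185% of its pair in homozygous, 0.207% in heterozygous and 0.282% in wild-type muscle, and Cox6b2 0.0877% in homozygous, 0.0767% in heterozygous and 0.0799% in wild-type muscle.

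**Figure D3:**
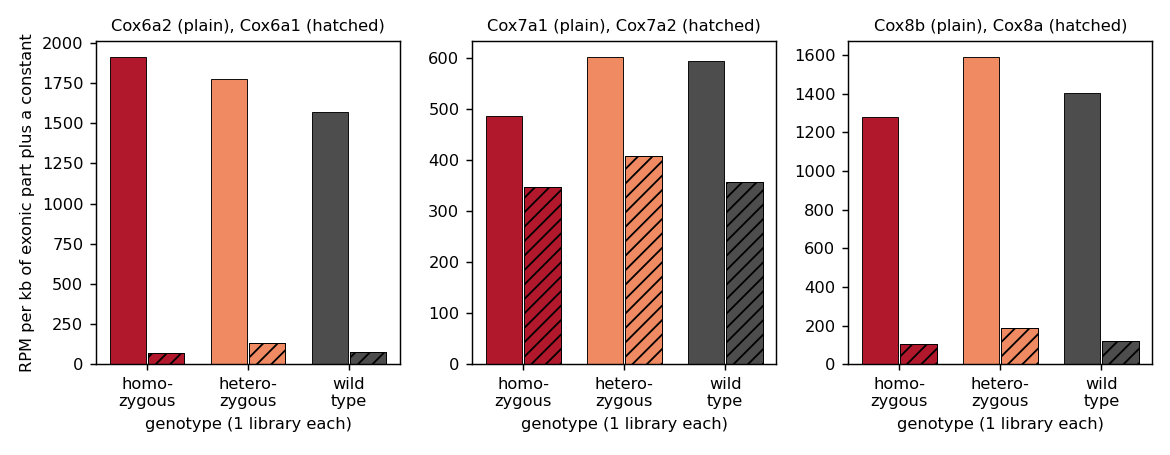
Level of each member of 3 COX isoform pairs (muscle form plain, other form hatched) in RPM per kilobase of exonic part plus a constant, with bars for homozygous, heterozygous and wild-type muscle, 1 library each and so without error bars. The muscle forms Cox6a2 and Cox8b exceed Cox6a1 and Cox8a in each library.

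Cox6a1 (ENSMUSG00000041697, chromosome 5) had 100.1 RPM in homozygous, 194 RPM in heterozygous and 111 RPM in wild-type muscle. Cox8a (ENSMUSG00000035885, chromosome 19) had 132 RPM in homozygous, 239 in heterozygous and 156 in wild-type muscle. Both were highest in the heterozygous library, by log2 ratios over wild type of 0.81 for Cox6a1 and 0.61 for Cox8a, and the log2 ratios of homozygous over heterozygous muscle were -0.95 and -0.85. The same was read near and far from the 3′ end, with log2 ratios of heterozygous over wild-type muscle of 0.80 near and 0.81 far for Cox6a1 and of 0.61 in both for Cox8a. Cox8a missed the 1.5-fold call under median-of-ratios and upper-quartile scaling, where 1 gene was higher in heterozygous than in wild-type muscle. The heterozygous library was also the one with the highest summed markers of white fat, brown fat, macrophages, endothelium, fibroblasts and red cells, as given above, and their part in these levels was not tested. The muscle form Cox6a2 (ENSMUSG00000030785, chromosome 7) had 2054 RPM in homozygous, 1908 in heterozygous and 1688 in wild-type muscle. Cox8b (ENSMUSG00000025488, chromosome 7) had 796 RPM in homozygous, 989.7 in heterozygous and 874 in wild-type muscle.

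The 250 bases upstream of the transcription start of Cox6a1 and Cox8a are shown because these were the pair that differed in level together. They come from RefSeq for GRCm38.p6, at chr5:115348959-115349208 and chr19:7217617-7217866, both on the minus strand and written 5′ to 3′. Capitals mark matches to the ETS motif CCGGAAG and the NRF1 core (GCGCA, any base, GCGC), which were searched on both strands along with the ERR site AAGGTCA and the YY1 motif ATGGCGG.
Cox6a1: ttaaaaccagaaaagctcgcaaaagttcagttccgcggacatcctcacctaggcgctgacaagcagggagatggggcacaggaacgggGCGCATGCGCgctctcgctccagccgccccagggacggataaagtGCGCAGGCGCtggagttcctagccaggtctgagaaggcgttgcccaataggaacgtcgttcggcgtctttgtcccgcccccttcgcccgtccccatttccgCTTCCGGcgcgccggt
Cox8a: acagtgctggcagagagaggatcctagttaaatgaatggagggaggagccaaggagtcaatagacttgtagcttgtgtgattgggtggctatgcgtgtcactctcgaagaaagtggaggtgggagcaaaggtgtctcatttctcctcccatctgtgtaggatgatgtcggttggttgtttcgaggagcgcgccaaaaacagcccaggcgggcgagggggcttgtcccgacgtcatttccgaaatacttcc

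Cox6a1 held 1 ETS match and 2 NRF1 core matches and Cox8a held none of the 4 motifs. Among 63 of 78 nuclear subunit genes with a sequence, 12 (19.05%) held the ETS motif, against 7.83% of all 27025 genes, and 12 (19.05%) the NRF1 core, against 4.23%. The ERR site was found in 4 (6.35%) against 4.70%, and the YY1 motif in 4 (6.35%) against 2.58%. The letters describe the windows only, and no binding was measured.

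Complex V couples the F1 head, which makes ATP, to stalks and the membrane part Fo. Its 15 nuclear subunits summed to 16805 RPM in homozygous, 18199 RPM in heterozygous and 17937 RPM in wild-type muscle, log2 ratios of -0.09 for homozygous and 0.02 for heterozygous over wild type. The 5 F1 subunits had a median log2 ratio of 0.16 in homozygous over wild type, 4 of them above 0, and the 10 stalk and Fo subunits -0.18, with 2 above 0 (5 with median-of-ratios factors and 8 with upper-quartile scaling). For heterozygous over wild type the medians were 0.18 for F1 and -0.13 for stalk and Fo subunits. From parts near the 3′ end the medians for homozygous over wild type were 0.12 for 5 F1 subunits and -0.25 for 9 stalk and Fo subunits.

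Atp5b, the catalytic beta subunit (ENSMUSG00000025393, chromosome 10), had 2546 RPM in homozygous, 2584 RPM in heterozygous and 2007 RPM in wild-type muscle. Atp5c1, the gamma shaft (ENSMUSG00000025781, chromosome 2), had 1224 RPM in homozygous, 1264 in heterozygous and 1024 in wild-type muscle. Both were lowest in wild type under each scaling tried. For Atp5b the near parts gave log2 ratios of 0.12 for homozygous and 0.24 for heterozygous over wild type, and the far parts 0.48 for homozygous and 0.44 for heterozygous. Atp5e, the small epsilon subunit of F1 (ENSMUSG00000016252, chromosome 2), had 1572 RPM in homozygous, 2129 RPM in heterozygous and 2264 RPM in wild-type muscle, highest in wild type under each scaling tried.

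In the membrane part, Atp5md (ENSMUSG00000071528, chromosome 19) had 910.4 RPM in homozygous, 1246 RPM in heterozygous and 1445 RPM in wild-type muscle. Its log2 ratio was -0.67 for homozygous and -0.21 for heterozygous over wild type. Read apart, the homozygous ratio was -0.57 near the 3′ end, just short of the call, and -0.69 far from it. Atp5md missed the call with median-of-ratios and upper-quartile scaling, where the median of all genes was -0.00 and 0.19. Atp5l (ENSMUSG00000038717, chromosome 9) had 714 RPM in homozygous, 855 RPM in heterozygous and 980.1 RPM in wild-type muscle. Atp5mpl (ENSMUSG00000021290, chromosome 12), another small membrane subunit, had 959.6 RPM in homozygous, 1080.2 in heterozygous and 1212 in wild-type muscle. On the library total all 3 small membrane subunits were lowest in homozygous and highest in wild-type muscle, but with upper-quartile scaling they were lowest in heterozygous muscle, and the homozygous ratio over wild type was -0.27 for Atp5md, -0.06 for Atp5l and 0.06 for Atp5mpl.

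Ratios also differed with mRNA length. Across 80 nuclear genes with a mRNA length, Spearman's rho between length and the log2 ratio was 0.42 for homozygous and 0.25 for heterozygous over wild type, a description over genes of the same libraries. Nuclear genes with mRNAs under 700 bases had a median log2 ratio of -0.21 in homozygous over wild type over 32 genes, those of 1000 to 2000 bases 0.10 over 24, and those of 2000 bases or more -0.07 over 9. Over 858 genes at 100 RPM or more rho was 0.20 for homozygous and 0.08 for heterozygous over wild type, with homozygous medians of -0.22 under 700 bases and 0.06 from 1000 to 2000 bases. Over all 8661 measured genes with a length rho was below 0, at -0.10 for homozygous and -0.05 for heterozygous over wild type. The part of length and of position along the mRNA in the differences between subunits was not tested.

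Mitochondrial DNA encodes the subunits at the centre of complexes I, III, IV and V. On the library total all 6 of its measured genes were below wild type in homozygous muscle, without any passing 1.5-fold, at a median log2 ratio of -0.46 and a range of -0.57 to -0.42. In heterozygous over wild type the median was -0.08, with 2 of 6 above 0. Summed, they took 1.69% of inclusion reads in homozygous, 2.24% in heterozygous and 2.30% in wild-type muscle. With median-of-ratios factors the medians were -0.27 for homozygous and -0.19 for heterozygous over wild type, and with upper-quartile scaling -0.06 for homozygous and -0.18 for heterozygous, so the order of both mutant libraries turned with the scaling. In homozygous over wild type 0 of 6 were above 0 under each scaling tried.

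mt-Co1, the catalytic subunit of COX (ENSMUSG00000064351), had 8674 RPM in homozygous, 11706 RPM in heterozygous and 11701 RPM in wild-type muscle. mt-Co2, which receives electrons from cytochrome c, had 2584 RPM in homozygous, 3306 in heterozygous and 3545 in wild-type muscle. mt-Cytb, the cytochrome b of complex III, had 3109.8 RPM in homozygous, 3968 in heterozygous and 4147 in wild-type muscle. On the library total the homozygous library was the low one for each, and with upper-quartile scaling the heterozygous library was. Of the complex I genes, mt-Nd3 had 618 RPM in homozygous, 825 in heterozygous and 916 in wild-type muscle, and mt-Nd5 had 1320.5 RPM in homozygous, 1824 in heterozygous and 1812 in wild-type muscle. The third, mt-Nd6, had 597 RPM in homozygous, 799.8 in heterozygous and 875 in wild-type muscle. mt-Nd6 lies on the other strand of the mitochondrial DNA, so its reads cannot be told from those of overlapping transcripts without strand.

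The mitochondrial chromosome as a whole had like ratios on the library total. Its 43 listed parts took 4.54% of inclusion reads in homozygous, 6.05% in heterozygous and 6.33% in wild-type muscle. These parts include the 6 subunit genes and merged groups that hold further subunits. The ribosomal RNA genes mt-Rnr1 and mt-Rnr2, which encode no subunit, took 0.749% in homozygous, 1.104% in heterozygous and 1.19% in wild-type muscle. Their log2 ratio for homozygous over wild type was -0.66, further down than the -0.44 of the 6 subunit genes. Slow-fibre markers were low in the same library, and their part in this was not tested.

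**Figure D4:**
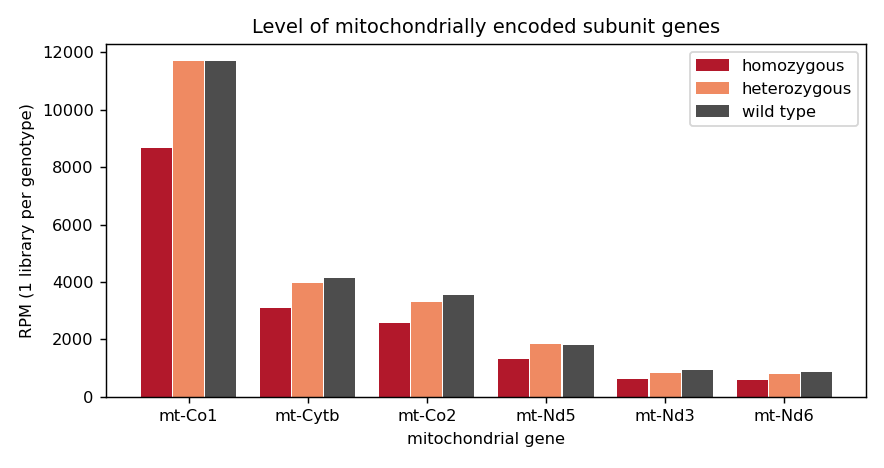
RPM of the 6 measured mitochondrial genes in homozygous, heterozygous and wild-type muscle, 1 library each. RPM is on the library total. On that scale the homozygous bar is the lowest of the 3 for each gene (with upper-quartile scaling the heterozygous median is lower), and heterozygous and wild-type bars lie close together, with mt-Co1 at 8674 RPM in homozygous, 11706 in heterozygous and 11701 in wild-type muscle.

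Splicing was read as PSI, the percent spliced in: inclusion reads of an exonic part over its length plus a constant number of bases, as a percent of that plus the exclusion reads, which skip the part, over the same constant. Exonic parts are the pieces into which overlapping transcripts divide a gene's exons, and 1 junction can count as skipping for several parts. Of 1007 parts with at least 100 reads in all 3 libraries, 666 (66.1%) were at 95% or more and 243 (24.1%) at 5% or less in all of them. The other 98 belonged to 32 genes.

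A PSI difference of at least 20 points, with at least 10 reads in both libraries, was found in 6 of 1089 parts in homozygous against wild-type muscle, 0.551%, where 5.57% of all parts differed so. These were 5 higher and 1 lower, in 2 genes. In heterozygous against wild-type muscle 8 of 1088 parts did, 0.735% against 5.78%, 1 higher and 7 lower in 5 genes. Between homozygous and heterozygous muscle 9 of 1087 parts were higher in the homozygous library and 0 lower, 0.828% against 5.52%. At 100 reads or more 1 of 1007 parts was left in homozygous against wild-type muscle, 0.0993% against 2.17% of all parts. In heterozygous against wild-type muscle 5 of 1017 were left, 0.492% against 2.57%. Between both mutant libraries 4 of 1009 were left, 0.396% against 2.25%.

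The deepest of these parts was in Ndufa5 (ENSMUSG00000023089), an accessory subunit of the complex I arm that reaches into the matrix. Its exon 2, 45 bases at chr6:24527273-24527317 on the minus strand of GRCm38, had 7663 inclusion and 1984 exclusion reads in homozygous, 9697 and 2303 in heterozygous, and 8823 and 0 in wild-type muscle. PSI was 74.2% in homozygous (95% interval 73.2 to 75.1), 75.8% in heterozygous (74.97 to 76.6) and 100% in wild-type muscle (99.9 to 100). The differences from wild type were -25.8 points (-26.8 to -24.9) for homozygous and -24.2 points (-25.0 to -23.4) for heterozygous muscle. Both mutant libraries skipped the exon in about the same share and no skipping read was found in wild type. The intervals cover counting error only, and copies made by amplification cannot be told from separate molecules.

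The exons next to it also differed. Exon 4 of Ndufa5, 66 bases, had 2004 exclusion reads in homozygous, 2312 in heterozygous and 16 in wild-type muscle, and PSI of 91.3% in homozygous, 92.0% in heterozygous and 99.9% in wild-type muscle. These exclusion counts were close to those of exon 2. Inclusion reads of exon 4 were more, at 31686 in homozygous, 39861 in heterozygous and 36764 in wild-type muscle. Its PSI differences from wild type were thus smaller, -8.6 points for homozygous and -8.0 for heterozygous muscle. The skipped share is therefore uncertain, and whether the same junctions count for both exons cannot be told from these counts. Exon 3, 117 bases, had 3798 exclusion reads in homozygous, 4290 in heterozygous and 2221 in wild-type muscle and PSI of 75.8% in homozygous, 77.8% in heterozygous and 85.9% in wild-type muscle. Exon 3 was thus skipped in wild type too, and its exclusion reads beyond those of exon 2 numbered 1814 in homozygous, 1987 in heterozygous and 2221 in wild-type muscle. The annotation holds a transcript that leaves out exon 3 alone. The 3 exons together are 228 bases or 76 codons, each exon a multiple of 3 in length, with 15, 39 and 22 codons. The level of Ndufa5 was 487 RPM in homozygous, 494 RPM in heterozygous and 484 RPM in wild-type muscle.

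The joined exons 2 to 4 of Ndufa5 are shown as the stretch whose exclusion reads differed between the mutant and wild-type libraries, with exon 3 in capitals, from chr6:24519192-24527317, minus strand, GRCm38.
Ndufa5 exons 2 to 4: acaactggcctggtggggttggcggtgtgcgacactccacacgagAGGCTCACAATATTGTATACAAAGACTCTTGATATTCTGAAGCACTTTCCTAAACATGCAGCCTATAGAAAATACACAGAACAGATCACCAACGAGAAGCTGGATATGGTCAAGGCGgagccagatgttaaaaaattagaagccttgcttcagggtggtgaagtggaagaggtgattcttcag

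The other parts past 20 points lay mostly in untranslated regions or rested on few reads. In the 5′ untranslated region of Ndufs1, the largest core subunit of complex I, 3 touching parts shared 141 exclusion reads in homozygous, 292 in heterozygous and 187 in wild-type muscle. The middle one, chr1:63176475-63176524, had PSI of 61.4% in homozygous (56.6 to 66.0), 30.9% in heterozygous (27.04 to 34.9) and 53.4% in wild-type muscle (48.8 to 57.9). Heterozygous muscle was the low one, by -22.5 points against wild type (-28.4 to -16.4). Cox6b2 had 6 such parts with 21 to 68 reads each, of which the untranslated part chr7:4752850-4752880 had PSI of 84.0% in homozygous (30 reads), 0% in heterozygous (50 reads) and 0% in wild-type muscle (46 reads). An untranslated part of Ndufc1 had PSI of 100% in homozygous, 73.8% in heterozygous and 100% in wild-type muscle, with 0 exclusion reads in homozygous, 13 in heterozygous and 0 in wild-type muscle. One of Ndufa13 had no reads in homozygous muscle and PSI of 63.0% in heterozygous (138 reads) and 100% in wild-type muscle (22 reads). The interval of that difference, -51.3 to 16.3 points, spans 0.

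Smaller shifts were counted at 5 points with at least 100 reads, a setting chosen after the data were seen. It held 33 of 1007 parts, in 11 genes, in homozygous against wild-type muscle (17 higher, 16 lower), where 11.4% of all parts passed. In heterozygous against wild-type muscle it held 30 of 1017 parts, in 11 genes (5 higher, 25 lower), where 11.9% of all parts passed. Between homozygous and heterozygous muscle it held 38 of 1009 parts, in 15 genes, where 11.0% of all parts passed.

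Several coding parts were skipped in 1 library more than in the others. The 106-base part of Cyc1 at chr15:76344864-76344969 had 64 exclusion reads in homozygous, 52 in heterozygous and 1139 in wild-type muscle, and PSI of 99.3% in homozygous, 99.5% in heterozygous and 87.1% in wild-type muscle. A part of Sdhc, chr1:171145756-171145812, was likewise lower in wild type, with 7 exclusion reads in homozygous, 6 in heterozygous and 113 in wild-type muscle and PSI of 99.3% in homozygous, 99.5% in heterozygous and 90.3% in wild-type muscle. In Sdha, the part chr13:74337482-74337539 had 157 exclusion reads in homozygous and 0 in heterozygous and wild-type muscle, and PSI of 86.9% in homozygous, 100% in heterozygous and 100% in wild-type muscle.

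Heterozygous muscle was the low one for others. A part of Ndufa3, chr7:3620001-3620085, had 0 exclusion reads in homozygous, 2226 in heterozygous and 0 in wild-type muscle, with PSI of 100% in homozygous, 89.9% in heterozygous and 100% in wild-type muscle. Atp5d, the delta subunit of F1, had PSI of 99.7% in homozygous, 87.2% in heterozygous and 99.1% in wild-type muscle at chr10:80143832-80143985, and Uqcrc1 94.9% in homozygous, 85.3% in heterozygous and 90.4% in wild-type muscle at chr9:108947598-108947758. A coding part of Atp5a1, the alpha subunit of F1, had PSI of 91.7% in homozygous, 85.1% in heterozygous and 96.9% in wild-type muscle, with 704 exclusion reads in homozygous, 1595 in heterozygous and 234 in wild-type muscle. In Ndufa11, chr17:56721319-56721358 was lowest in homozygous muscle, at 84.7% in homozygous, 88.5% in heterozygous and 92.3% in wild-type muscle.

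Atp5c1 has a 37-base exon, chr2:10056770-10056806, that muscle is known to skip and most other tissues include. Its PSI was 3.89% in homozygous, 7.65% in heterozygous and 4.52% in wild-type muscle, with 18499 exclusion reads in homozygous, 24062 in heterozygous and 19463 in wild-type muscle. The muscle form dominated in all 3 libraries, and the heterozygous library, which had the highest fat and stromal markers, held the most of the other form, whose link to those markers was not tested. Another coding part of Atp5c1, chr2:10063481-10063586, had 604 exclusion reads in homozygous, 1263 in heterozygous and 0 in wild-type muscle, and PSI of 95.9% in homozygous, 93.4% in heterozygous and 100% in wild-type muscle.

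**Figure D5:**
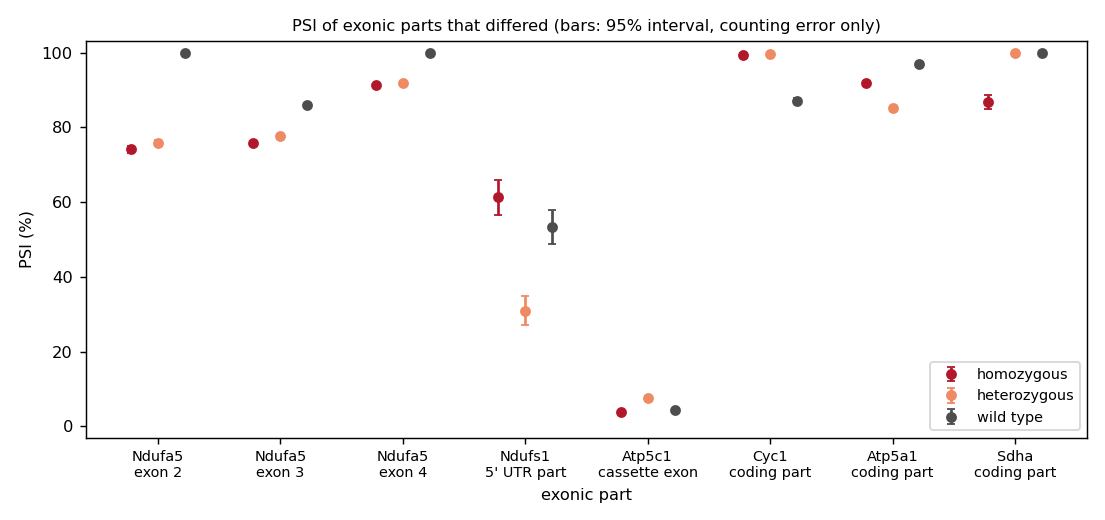
PSI in percent of exons 2, 3 and 4 of Ndufa5, the 5′ untranslated part of Ndufs1, the 37-base exon of Atp5c1 and coding parts of Cyc1, Atp5a1 and Sdha, with points for homozygous, heterozygous and wild-type muscle and bars for 95% intervals that cover counting error only. Ndufa5 exon 2 sits at 74.2% and 75.8% in the mutant libraries and 100% in wild type.

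Genes that work with the complexes were read from lists of their own, on the library total alone. Of all measured genes 6.74% were called higher and 24.0% lower in homozygous than in wild-type muscle. In heterozygous against wild-type muscle 16.5% were called higher and 8.85% lower. Of 13 measured enzymes of the citric acid cycle, which feeds complexes I and II, 11 were above 0 in homozygous and 13 in heterozygous over wild type, with median log2 ratios of 0.32 for homozygous and 0.30 for heterozygous over wild type. Of all 9432 measured genes 3394 were above 0 in homozygous and 5663 in heterozygous over wild type. Of the 917 genes at 100 RPM or more 445 and 565 were, with medians of -0.01 and 0.07. Other scalings were not tried for this list, and its parts near the 3′ end were not read apart. In homozygous muscle 1 was called higher, Idh3a, a subunit of isocitrate dehydrogenase, at 454 RPM in homozygous, 422 RPM in heterozygous and 294 RPM in wild-type muscle. In heterozygous muscle 1 was called higher, Suclg2, a subunit of succinyl-CoA ligase, at 22.5 RPM in homozygous, 42.7 in heterozygous and 27.4 in wild-type muscle. Electron carriers and feeders, 15 genes, had medians of 0.17 for homozygous and 0.28 for heterozygous over wild type, with 0 called in homozygous and 1 in heterozygous muscle. This was Coq8a, a kinase-like protein of ubiquinone synthesis, at 320.3 RPM in homozygous, 503 RPM in heterozygous and 314 RPM in wild-type muscle.

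Of 39 assembly factors 3 were higher and 2 lower in homozygous than in wild-type muscle, and 1 was higher and 3 lower in heterozygous than in wild-type muscle, with medians of 0.02 for homozygous and 0.11 for heterozygous over wild type. The shares of all measured genes were 6.74% higher and 24.0% lower in homozygous, and 16.5% higher and 8.85% lower in heterozygous than in wild-type muscle. Timmdc1, a complex I assembly factor, had 11.2 RPM in homozygous, 5.89 RPM in heterozygous and 5.73 RPM in wild-type muscle. Atpaf2, which helps build F1, had 16.1 RPM in homozygous, 31.9 in heterozygous and 25.3 in wild-type muscle. The complex I factor Ecsit was the one higher in heterozygous muscle, at 77.2 RPM in homozygous, 86.8 in heterozygous and 55.3 in wild-type muscle. Among 8 carriers of nucleotides and phosphate and their partners, with medians of 0.05 for homozygous and 0.07 for heterozygous over wild type, Atpif1, the inhibitor of the ATP synthase, was lower in homozygous muscle, at 48.7 RPM in homozygous, 67.7 RPM in heterozygous and 82.6 RPM in wild-type muscle.

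Of 20 measured regulators of these genes, 1 was higher and 2 lower in homozygous, and 2 higher and 3 lower in heterozygous than in wild-type muscle, with medians of -0.16 for homozygous and 0.13 for heterozygous over wild type. Among all measured genes 6.74% were higher and 24.0% lower in homozygous, and 16.5% higher and 8.85% lower in heterozygous than in wild-type muscle. The 2 lower in homozygous muscle were Polg2 and Ppargc1a. Polg2 had 1.73 RPM in homozygous, 5.86 RPM in heterozygous and 7.82 RPM in wild-type muscle. Ppargc1a, a coactivator that drives mitochondrial genes, had 7.62 RPM in homozygous, 25.7 RPM in heterozygous and 17.2 RPM in wild-type muscle. The log2 ratios of homozygous over wild type were -1.69 for Polg2 and -1.08 for Ppargc1a. Tefm, an elongation factor of mitochondrial transcription, had 19.5 RPM in homozygous, 12.3 in heterozygous and 10.5 in wild-type muscle. Polrmt, the mitochondrial RNA polymerase, had the lowest log2 ratio of heterozygous over wild type among these regulators, -1.53. It stood at 18.1 RPM in homozygous, 6.98 in heterozygous and 21.98 in wild-type muscle. These levels are low, and each rests on 1 library.

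The genes that share the names but are not subunits were read apart. The 7 measured ones had median log2 ratios of -0.18 for homozygous and 0.04 for heterozygous over wild type and none was called. Of all measured genes 30.7% were called in homozygous and 25.3% in heterozygous against wild-type muscle. Cox7a2l, which joins complexes III and IV into supercomplexes, had 87.9 RPM in homozygous, 90.9 RPM in heterozygous and 91.5 RPM in wild-type muscle. Ndufa4l2, a protein induced in low oxygen, had 8.67 RPM in homozygous, 10.5 in heterozygous and 10.1 in wild-type muscle. Ndufb4c had 24.3 RPM in homozygous, 32.1 in heterozygous and 27.7 in wild-type muscle. It and Ndufa11b, Ndufs6b and Cox6c2, which were under 5 RPM, carry the names of near copies of subunit genes, so reads may be shared with those and their levels are uncertain.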

How the data were processed

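Skeletal muscle RNA was turned into cDNA with a low-input kit that copies whole transcripts and sequenced, per the labels' protocols. Per the submitters' processing notes, which give no roles, the tools were TopHat2 2.0.14, Bowtie 1.1.1, Trimmomatic 0.32 and cutadapt 1.1, and the mouse build was GRCm38. No source used here names the counting program, its strand setting or the annotation release. The deposited table gives inclusion and exclusion read counts per exonic part and library, part lengths in bases, and a PSI fraction computed by the authors. The fraction equals inclusion over length plus a constant, as a share of that plus exclusion over the constant, within 5e-07. The deposited differences run wild type minus the other genotype and were turned here to genotype minus wild type. A read that spans several parts counts in each.

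RPM was inclusion reads of a gene per 1000000 inclusion reads of the library. Log2 ratios used a pseudocount of 1 RPM, a minimum of 5 RPM in at least 1 library and a call at 1.5-fold, and PSI calls used 20 points and at least 10 reads. Intervals are Wilson, and Newcombe for differences, at 95%, and cover counting error only. Alternatives were other scalings (a total without mitochondrial reads, median-of-ratios factors over measured genes, and the upper quartile of gene counts), other folds, minima, pseudocounts, read minima, PSI steps, the longest part and 1 part per gene. Named genes were the mitochondrial ones, the highest per length and the furthest from wild type in each complex, the isoform pairs, genes with a called part and the non-subunits; others named were chosen after their values were seen. The members and lists were chosen with earlier results of these data known. Parts were placed on mRNAs with the GENCODE annotation of GRCm38, and promoters came from RefSeq GRCm38.p6. Merged overlapping genes (1405 groups) were not analysed here, and 0 other per-sample columns were found. Calculations ran in Python 3.11.15 with scipy 1.17.1, pandas 2.3.3, matplotlib 3.10.9 and numpy 2.4.6, and were checked on simulated data.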

Additional observations from a re-analysis of the deposited data

How the results depend on the processing

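Each genotype has 1 library, so neither leaving out a replicate nor a test was possible. No paired analysis was possible because each genotype has 1 library and no test was run. Counts of subunit genes past the fold are given for homozygous against wild-type, heterozygous against wild-type and homozygous against heterozygous muscle. They were 1, 2 and 2, and became 21, 9 and 13 at the lower of the other folds tried and 0, 0 and 0 at 2-fold. Median-of-ratios factors gave 0, 1 and 1, and upper-quartile scaling 11, 1 and 7, these all higher in the genotype named first. For homozygous against wild-type muscle the count was 2 with no minimum level, 2 without mitochondrial reads in the total, and 0 from the longest part of each gene. In that last setting 30 nuclear genes were measured, with no stalk or Fo subunit of complex V, so Atp5md could not be called. The count was also 0 from parts near the 3′ end, a setting added after the data were seen. Counts of parts past the PSI difference, in the same order, were 6, 8 and 9. They became 1, 5 and 4 at 100 reads, 2, 5 and 3 with 1 part per gene, and 33, 30 and 38 at 5 points with 100 reads, also added after the data were seen. At 10 points 15 parts were counted for homozygous against wild-type and 17 for homozygous against heterozygous muscle, and at 30 points 3 for heterozygous against wild-type muscle.

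The median log2 ratios of nuclear genes for homozygous and heterozygous over wild type were 0.095 and -0.077 with median-of-ratios factors and 0.29 and -0.067 with upper-quartile scaling. Those of mitochondrial genes were -0.27 and -0.19, then -0.064 and -0.18. Without mitochondrial reads in the total the mitochondrial median for homozygous over wild type was -0.48. The heterozygous nuclear median was 0.018 with no minimum, 0.0060 from the longest parts and 0.0053 from parts near the 3′ end. Summed levels of complexes I to V for homozygous over wild type were -0.061, 0.23, -0.13, -0.21 and -0.12 without mitochondrial reads and 0.16, 0.45, 0.092, 0.011 and 0.096 with median-of-ratios factors. They were 0.36, 0.65, 0.29, 0.21 and 0.30 with upper-quartile scaling and -0.17, -0.027, -0.15, -0.042 and 0.097 from the longest parts. For heterozygous over wild type they were -0.070, 0.25, -0.076, -0.077 and -0.087 with median-of-ratios factors, -0.061, 0.26, -0.066, -0.068 and -0.077 with upper-quartile scaling, and -0.093, 0.11, 0.073, 0.14 and 0.18 from the longest parts. In the longest parts only 3 of 4 complex II subunits, without Sdhb, and no stalk or Fo subunit of complex V reached the 5 RPM minimum. From parts near the 3′ end complexes I, II, III and V came to -0.046, 0.20, -0.18 and -0.23 for homozygous and 0.018, 0.35, -0.011 and -0.045 for heterozygous over wild type. Of 92 signs of named genes, 16 changed with median-of-ratios factors, 28 with upper-quartile scaling and 3 without mitochondrial reads. From the longest parts 4 of 52 changed. No sign changed with another pseudocount, with no minimum or a minimum of 20 RPM, or with subunits alone.

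Isoform shares in homozygous, heterozygous and wild-type muscle without division by length were 95.3%, 90.7% and 93.8% for Cox6a2, 50.6%, 51.9% and 54.8% for Cox7a1, 85.8%, 80.6% and 84.8% for Cox8b, 0.0807%, 0.0906% and 0.123% for Cox4i2 and 0.185%, 0.162% and 0.169% for Cox6b2. From the longest part per length they were 93.7%, 87.7% and 91.7% for Cox6a2, 48.9%, 50.4% and 53.2% for Cox7a1, 88.1%, 83.7% and 87.4% for Cox8b and 0.00316%, 0% and 0.00914% for Cox6b2. The longest part of Cox4i1 lies in a non-coding transcript and holds few reads, and with it Cox4i2 came to 93.7%, 93.7% and 98.1%. The cause of the other shifts was not tested. Parts of subunit genes held a median of 8123.5 reads in homozygous, 10038.5 in heterozygous and 7981 in wild-type muscle, and each genotype has 1 library.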
